A study of Homo sapiens with 6 samples.

Results

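NRF2 targets and antioxidant enzymes were examined in U2OS cells, a human osteosarcoma line, after knockdown of LSD1, the histone demethylase encoded by KDM1A. The genes were chosen by name, as a list of 45 genes that holds NRF2 with its regulators, the detoxifying and glutathione enzymes NRF2 is known to induce, and the general antioxidant enzymes. The peroxiredoxins and TXNRD1 were left out of the list. Of these 45 genes, 44 were among the 15585 genes of the count table, and HMOX2 was not analysed here, so that the counts below are out of 44. RNA-seq libraries had been made 48 h after transfection, 3 from cells given a control siRNA (siCTR) and 3 from cells given siRNA against LSD1 (siLSD1), all of the same unmodified cell line with no other treatment. The control for the transfection was thus a transfection as well, and an untransfected culture was not analysed here. Total counts ran from 12513511 to 13561344 reads per library.

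NRF2, encoded by NFE2L2, is the transcription factor that raises detoxifying and antioxidant genes when electrophiles or oxidants reach the cell. In resting cells its adaptor KEAP1 presents it to a ubiquitin ligase, and it is degraded. When cysteines of KEAP1 are modified, NRF2 accumulates, pairs with a small MAF protein and binds the antioxidant response element, a short DNA motif at which the repressor BACH1 competes. NRF2 activity is mostly set by the amount and location of the protein, which RNA counts do not measure.

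The element has the core TGACNNNGC, and its letters were searched on both strands in RefSeq promoter windows of 300 bases (GRCh38.p14, from 250 bases before to 50 after the transcription start). A window was used for 35 of the listed genes (13 with more than 1), and the core occurred in at least 1 window of 8 of these genes (22.9%): PGD, GCLM, EPHX1, IDH1, ME1, GSTO1, GSTP1 and KEAP1. It also occurred in 19.5% of the 9372 tested genes with a window. No window was used for HMOX1, SLC7A11, GSS, GSR, ABCC1, ABCC3, FTH1, SOD1 and TXN2. Shown are the matches whose core has the same letters in a pair of genes, and that of EPHX1, the gene with a match that fell, 5′ to 3′ on the strand of the gene, with the core in capitals and 10 bases on each side. GCLM lies on the minus strand (chr1:93909446-93909474), GSTP1 on the plus strand (chr11:67583736-67583764), ME1 on the minus strand (chr6:83431170-83431198), KEAP1 on the minus strand (chr19:10502784-10502812) and EPHX1 on the plus strand (chr1:225825266-225825294). In GCLM and KEAP1 the core reads on the opposite strand, so its reverse complement is in capitals.
GCLM: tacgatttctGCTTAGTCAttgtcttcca
GSTP1: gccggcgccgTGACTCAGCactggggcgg
ME1: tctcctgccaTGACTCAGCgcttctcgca
KEAP1: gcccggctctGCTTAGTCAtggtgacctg
EPHX1: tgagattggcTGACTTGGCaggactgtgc
GCLM and KEAP1 carried the same letters in the core, and so did GSTP1 and ME1, where the core overlaps the AP-1 motif TGACTCA. The latter occurred in 4 of the 35 listed genes (11.4%) and in 4.88% of tested genes. A match is only a run of letters, and binding of NRF2 was not measured in these files.

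The targeted gene was checked first. KDM1A had 6140, 6493 and 6573 reads in siCTR against 1110, 1198 and 1246 in siLSD1, which is 18.5% of the control level in library-scaled read counts (CPM). Expression of U2OS markers was mixed. ALPL and VIM were high, at 123 and 428 FPKM (fragments per kilobase of transcript, scaled to library size) in siCTR, CDH2 was at 12.5 and COL1A1 at 1.62, while the osteoblast genes RUNX2, SP7 and SPARC had between 0 and 4 reads per library. Of the markers of other cells, KRT5, PTPRC and PECAM1 had between 0 and 3 reads, EPCAM was at 1.28 FPKM in siCTR and CDH1 at 1.24 FPKM in siCTR and 2.11 in siLSD1. COL1A2 and ALB were not analysed here. The part of these marker levels in the results was not tested.

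Differences were fitted with edgeR's quasi-likelihood test on the counts over 11844 genes, and a gene is said here to have risen or fallen where its unadjusted p was under 0.05. The adjusted p (Benjamini-Hochberg over all tested genes, at 0.05) is given beside it. All 44 genes of the list that were in the table passed the filter on low counts. Of them, 10 fell and 2 rose at the unadjusted threshold. Among all tested genes, 6.55% fell and 7.48% rose, so 22.7% of the list lay lower against 6.55% of the background, and 4.55% higher against 7.48%. At the adjusted threshold 3 genes were lower, HMOX1, AKR1C2 and AKR1C3 (0.371% of all tested genes), and 0 were higher (1.07% of all tested genes). DESeq2 and limma-voom also gave 0 higher genes at an adjusted p under 0.05. The log2 difference was below 0 for 34 of the 44 genes (52.7% of all tested genes), with a median of −0.20 against −0.01 over all tested genes and a range from −0.85 to 0.47. As these are bulk libraries, fewer cells of a kind and less RNA per cell cannot be told apart.

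**Figure D1:**
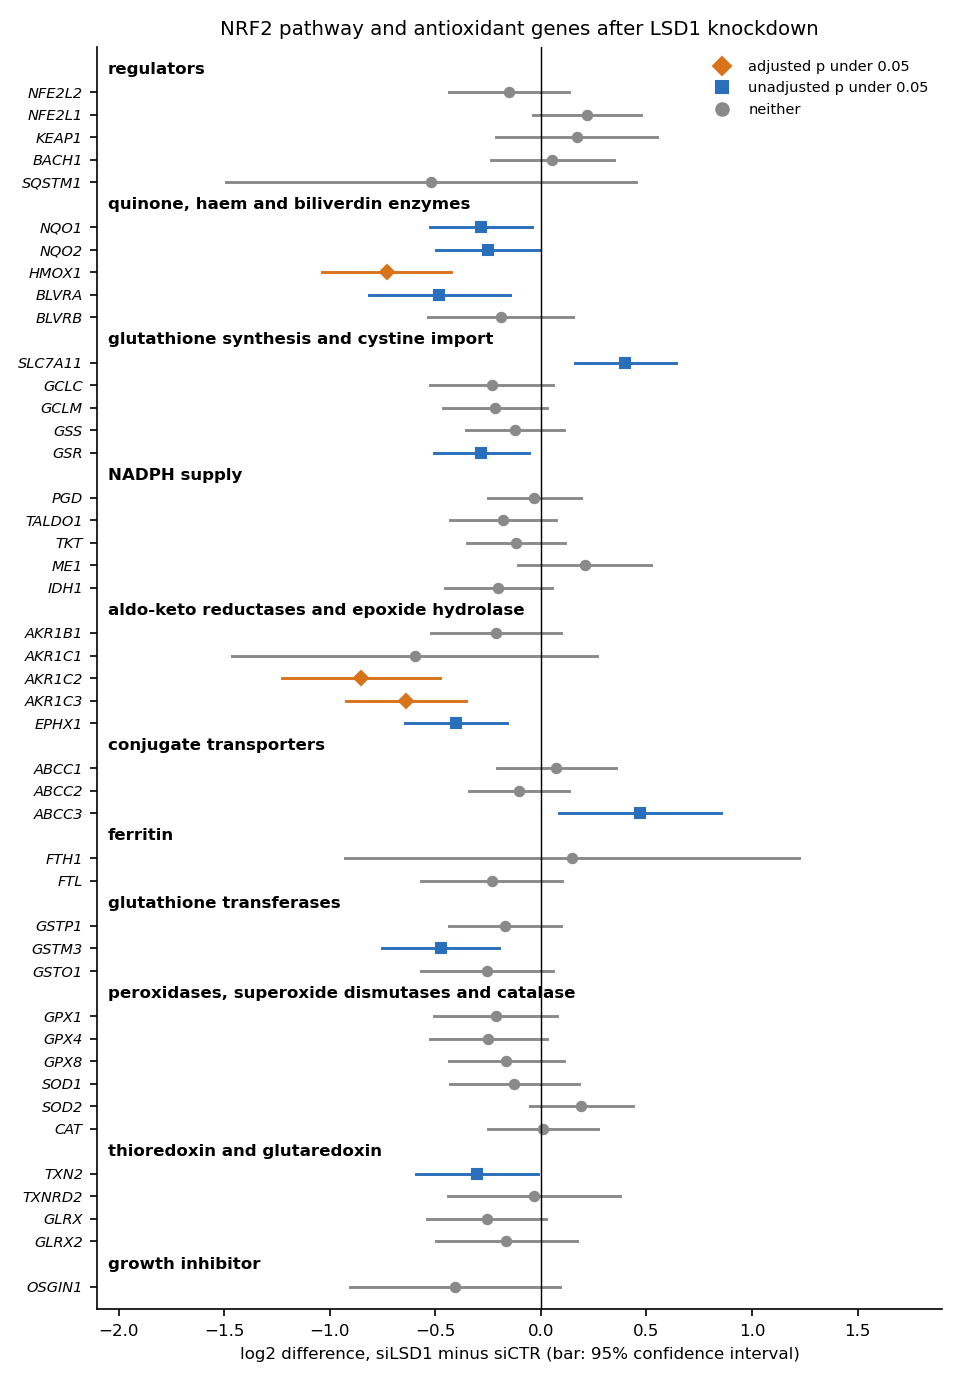
Log2 difference between siLSD1 and siCTR (x axis) for each listed gene (y axis, grouped by role), with 95% confidence intervals from edgeR, n = 3 libraries per group. HMOX1, AKR1C2 and AKR1C3 lie farthest to the left among the narrow intervals, from −0.85 to −0.64, and SLC7A11 and ABCC3 are the only coloured points right of 0.

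The control libraries were not alike for these genes. Replicate 2 of siCTR was the highest of all 6 libraries for 25 of the 44 genes (56.8%), compared with 27.2% of all tested genes. The median log2 value of the listed genes against their siCTR mean was −0.085, 0.13 and −0.068 for replicates 1 to 3 of siCTR, and −0.16, −0.19 and −0.23 for those of siLSD1. All 3 siLSD1 libraries were therefore below all 3 siCTR libraries by this measure, but the nearest siCTR library lay closer to the siLSD1 libraries than to siCTR replicate 2. Without siCTR replicate 2, 8 genes were lower at the unadjusted threshold (5.69% of all tested genes), 0 at the adjusted threshold (0.192% of all tested genes), and the median was −0.083, with 33 of the 44 genes below 0.

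**Figure D2:**
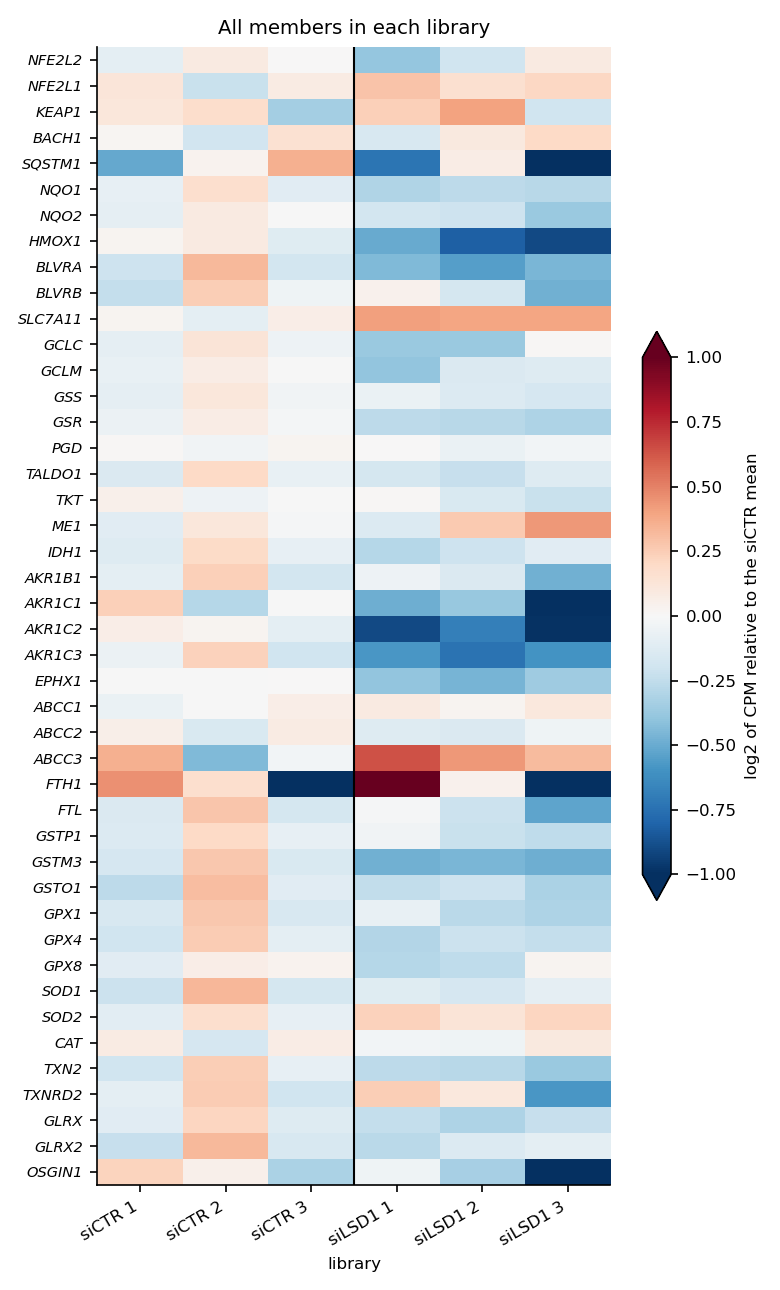
Log2 of CPM relative to the siCTR mean (colour scale, red above and blue below) for each listed gene (y axis) in each of the 6 libraries (x axis, 3 siCTR then 3 siLSD1). The column of siCTR replicate 2 is red for most genes, and FTH1 differs strongly between replicates of the same group.

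The regulators of the pathway did not pass either threshold in the fit described above. NFE2L2 had 1807, 2040 and 2014 reads in siCTR against 1532, 1618 and 2146 in siLSD1. The groups overlapped, with replicate 3 of siLSD1 the highest of all. Its log2 difference was −0.15 (SE 0.13, 95% interval −0.43 to 0.13, edgeR adjusted p = 0.634). The value rested on single libraries, at −0.29 without siLSD1 replicate 3 (unadjusted p = 0.0364) and −0.047 without siLSD1 replicate 1. KEAP1, the adaptor that holds NRF2 down, had 387, 401 and 293 reads in siCTR against 438, 455 and 324 in siLSD1. These ranges overlapped too, and the log2 difference was 0.17 (95% interval −0.21 to 0.55, edgeR adjusted p = 0.700), with values from 0.023 without siCTR replicate 3 to 0.33 without siLSD1 replicate 3, and 0.27 and 0.045 without siCTR or siLSD1 replicate 2. BACH1, the repressor of HMOX1 and other targets, had 739, 633 and 837 reads against 675, 749 and 870, with a log2 difference of 0.05 (95% interval −0.24 to 0.34). Its sign depended on the libraries, with values from −0.029 to 0.15 when each library was left out. The intervals of NFE2L2 and BACH1 leave room for changes of up to 0.43 and 0.34 on the log2 scale. NFE2L1, the related factor that controls proteasome genes, had 142 ± 17.7 CPM in siCTR and 166 ± 7.37 in siLSD1 (SD, n = 3). All its siLSD1 libraries were above all siCTR libraries, which 11.4% of all tested genes also showed, and its log2 difference was 0.22 (SE 0.12, edgeR adjusted p = 0.435). The difference of NFE2L1 was 0.12 without siCTR replicate 2. SQSTM1, the autophagy receptor that sequesters KEAP1, had only 6 to 17 reads per library, and 55.7% of its exonic bases are overlapped by MRNIP on the opposite strand. Whether the counting used strand is not given in the sources used here.

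The quinone, haem and biliverdin enzymes held 1 of the decreases past the adjusted threshold. HMOX1, the inducible haem oxygenase that opens haem to biliverdin, iron and carbon monoxide (chr22:35380361-35394214, plus strand, GRCh38), had 451, 466 and 421 reads in siCTR against 323, 241 and 246 in siLSD1. No siLSD1 library reached the lowest siCTR library. The level fell from 34.1 ± 2.55 to 20.5 ± 3.10 CPM (SD, n = 3), to 60.3% of siCTR. The log2 difference was −0.73 (SE 0.14, 95% interval −1.04 to −0.42, edgeR adjusted p = 0.0228). With each library left out the log2 difference stayed between −0.86 and −0.65. The adjusted p was under the threshold without siCTR replicate 1 (0.0484) or siLSD1 replicate 1 (0.0223). It was over the threshold without siCTR replicate 2 (0.0785), siCTR replicate 3 (0.0559), siLSD1 replicate 2 (0.136) or siLSD1 replicate 3 (0.0617).

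BLVRA, the reductase that turns the biliverdin made by HMOX1 into bilirubin, had 376, 537 and 396 reads in siCTR against 331, 284 and 328 in siLSD1. The groups did not overlap, and siCTR replicate 2 stood above the other control libraries. The log2 difference was −0.48 (SE 0.16, 95% interval −0.82 to −0.15, unadjusted p = 0.00855, edgeR adjusted p = 0.174). It was −0.28 without siCTR replicate 2, still under an unadjusted p of 0.05. BLVRB, the other biliverdin reductase, did not pass, at −0.19 (95% interval −0.53 to 0.15). It was −0.051 without siCTR replicate 2, −0.061 without siLSD1 replicate 3, −0.30 without siCTR replicate 1 and −0.32 without siLSD1 replicate 1.

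NQO1, the quinone reductase most often used as a readout of NRF2, had 4006, 4714 and 4062 reads in siCTR against 3541, 3382 and 3619 in siLSD1. Each siLSD1 library was below each siCTR library, and the siLSD1 libraries lay close together, at 268 ± 3.77 CPM against 326 ± 35.8 in siCTR (SD, n = 3). The log2 difference was −0.28 (SE 0.11, 95% interval −0.53 to −0.04, unadjusted p = 0.0256, edgeR adjusted p = 0.270), or 82.2% of siCTR. Without siCTR replicate 2 it was −0.19, and without siLSD1 replicate 1 or 2 the unadjusted p was 0.0600 and 0.0854. NQO2, a related quinone reductase, had 943, 1053 and 1035 reads against 913, 832 and 805 and fell by 0.25 on the log2 scale (SE 0.11, unadjusted p = 0.0461, edgeR adjusted p = 0.344). This gene lay at the threshold: of the 6 fits that left out a library it passed only without siLSD1 replicate 1 (unadjusted p = 0.0449), and the unadjusted p was 0.0512 and 0.0821 without siCTR replicates 1 and 2, 0.103 without siCTR replicate 3, and 0.111 and 0.131 without siLSD1 replicates 2 and 3. With all libraries NQO2 missed it with DESeq2 (unadjusted p = 0.0513), and in edgeR with no filter (0.0545), a stricter filter (0.0505) or the second counting of the reads (0.0515). The other fits with all libraries, described below, kept it, among them limma-voom (unadjusted p = 0.0447).

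**Figure D3:**
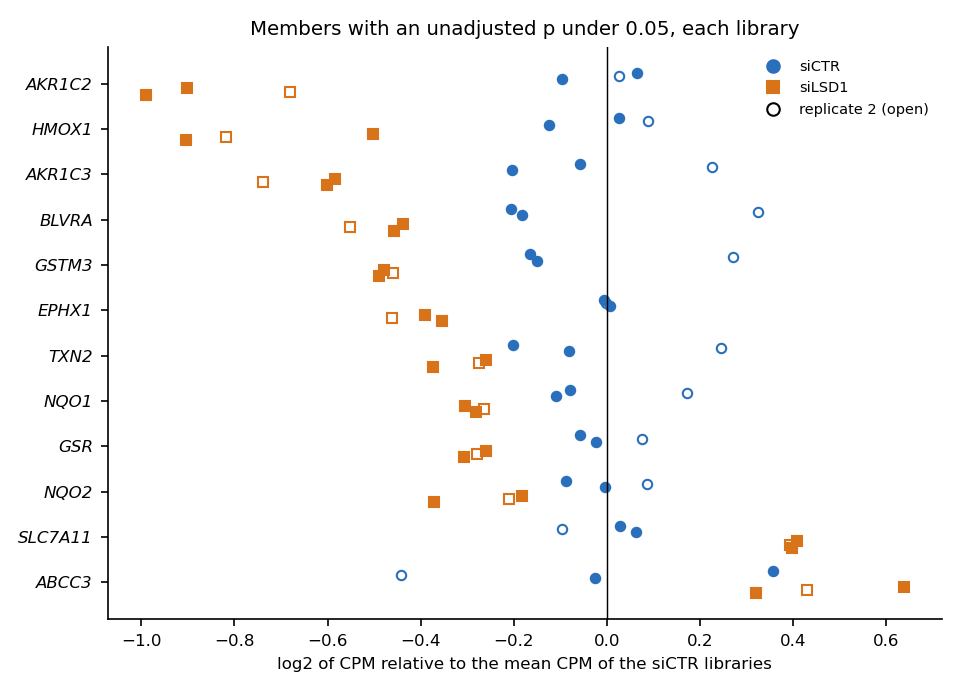
Log2 of CPM relative to the siCTR mean (x axis) for the 12 listed genes with an unadjusted p under 0.05 (y axis), with each library as a point (siCTR circles, siLSD1 squares, replicate 2 of each group open). The siLSD1 squares lie left of the siCTR circles for the 10 genes that fell, and for ABCC3 the groups overlap.

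The gene of cystine import rose, while the genes of glutathione synthesis lay below 0 without passing. SLC7A11, the cystine carrier of system xc- that brings in the cystine from which glutathione is made (chr4:138164097-138242349, minus strand, GRCh38), had 728, 661 and 773 reads in siCTR against 980, 901 and 977 in siLSD1. All siLSD1 libraries were above all siCTR libraries. In CPM they lay within a narrow range, at 72.6 ± 0.389 against 55.0 ± 3.14 (SD, n = 3). SLC7A11 rose by 0.40 on the log2 scale (SE 0.11, 95% interval 0.16 to 0.64, unadjusted p = 0.00312, edgeR adjusted p = 0.110), to 132% of siCTR. With each library left out the log2 difference was between 0.36 and 0.43, with an unadjusted p of at most 0.0174.

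The ligase that joins cysteine to glutamate in the first step of synthesis did not share this direction. GCLC, its catalytic subunit, had 740, 855 and 788 reads in siCTR against 631, 584 and 824 in siLSD1, with a log2 difference of −0.23 (SE 0.14, 95% interval −0.53 to 0.06, edgeR adjusted p = 0.469). One siLSD1 library, replicate 3, lay within the siCTR range, and without it the difference was −0.37 (unadjusted p = 0.0119). GCLM, its modifier subunit, had 1603, 1759 and 1749 reads against 1329, 1466 and 1604. Its groups did not overlap once scaled for library size, and the log2 difference was −0.22 (SE 0.11, 95% interval −0.47 to 0.03, unadjusted p = 0.0776, edgeR adjusted p = 0.416), or −0.14 without siLSD1 replicate 1. The whole intervals of GCLC and GCLM lie below the lower bound of SLC7A11. GSS, the synthetase of the next step, was at −0.12 (95% interval −0.35 to 0.11), or −0.062 without siCTR replicate 2. GSR, the reductase that regenerates glutathione from its oxidised form, had 1815, 1967 and 1925 reads in siCTR against 1630, 1493 and 1586 in siLSD1. It fell by 0.28 on the log2 scale with no overlap (SE 0.10, 95% interval −0.50 to −0.06, unadjusted p = 0.0175, edgeR adjusted p = 0.235). Without siLSD1 replicate 2 the unadjusted p of GSR was 0.0837.

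The listed enzymes that supply NADPH, which glutathione reductase and NQO1 use, did not pass. The pentose phosphate enzymes were at −0.03 for PGD, −0.18 for TALDO1 and −0.12 for TKT, and IDH1, the cytosolic isocitrate dehydrogenase, was at −0.20. ME1, the cytosolic malic enzyme, was at 0.21 (95% interval −0.11 to 0.52), with 0.35 without siLSD1 replicate 1 (unadjusted p = 0.0192) and 0.079 without siLSD1 replicate 3. Single libraries moved these small values: without siCTR replicate 2, PGD was at −0.047, TALDO1 at −0.068 and IDH1 at −0.093. PGD was at −0.018 without siCTR replicate 3, −0.047 without siLSD1 replicate 1 and −0.0063 without siLSD1 replicate 2, and TKT at −0.19 without siLSD1 replicate 1 and −0.067 without siLSD1 replicate 3. TALDO1 and IDH1 did not overlap between groups when only library size was used for scaling, but did with TMM factors.

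The aldo-keto reductases, which reduce carbonyls and steroids, held the other decreases past the adjusted threshold. AKR1C2 (chr10:4987775-5018031, minus strand, GRCh38) had 138, 133 and 128 reads in siCTR against 73, 79 and 69 in siLSD1. The gap between the groups was larger than the spread within either. It fell from 10.2 ± 0.578 to 5.63 ± 0.634 CPM (SD, n = 3), to 55.4% of siCTR, with a log2 difference of −0.85 (SE 0.17, 95% interval −1.23 to −0.48, edgeR adjusted p = 0.0304). AKR1C3, which lies beside it on the opposite strand (chr10:5035354-5107686, plus strand, GRCh38) and is known for making androgens and prostaglandins, had 1103, 1329 and 1033 reads in siCTR against 792, 660 and 786 in siLSD1. Its groups did not overlap either. It fell from 88.4 ± 13.7 to 56.7 ± 3.30 CPM (SD, n = 3), to 64.2% of siCTR, with a log2 difference of −0.64 (SE 0.13, 95% interval −0.92 to −0.36, edgeR adjusted p = 0.0308). These adjusted values depended on having all libraries: for AKR1C2 every fit without 1 library gave an adjusted p over 0.05, from 0.0732 without siCTR replicate 3 to 0.0956 without siLSD1 replicate 1. For AKR1C3 it was 0.0439 and 0.0463 without siCTR replicates 1 and 3, 0.0755 without siCTR replicate 2, and 0.0805, 0.193 and 0.0534 without siLSD1 replicates 1, 2 and 3. The unadjusted p was at most 0.00146 for AKR1C2 and 0.00337 for AKR1C3 in these fits.

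AKR1C1, which is close in sequence to AKR1C2, had only 16, 11 and 14 reads in siCTR against 10, 10 and 7 in siLSD1. Its log2 difference was −0.60 (SE 0.40, edgeR adjusted p = 0.527), and this depth could not show a change of the size seen in AKR1C2. Of all stretches of 32 bases in the canonical AKR1C2 transcript, 58.6% occur in another gene, and 57.5% occur in AKR1C1, compared with 26.1% shared by AKR1C3 with any other gene. How reads that match several genes were counted is not given in the sources used here, so the split between AKR1C1 and AKR1C2 is uncertain. AKR1B1, aldose reductase, was at −0.21 (95% interval −0.52 to 0.10), or −0.074 without siCTR replicate 2 and −0.095 without siLSD1 replicate 3. EPHX1, the microsomal epoxide hydrolase whose promoter match is shown above, had 677, 672 and 708 reads in siCTR against 536, 474 and 553 in siLSD1. The siCTR libraries were nearly equal in CPM, at 52.4 ± 0.259 against 39.7 ± 1.50 in siLSD1 (SD, n = 3). EPHX1 fell by 0.40 on the log2 scale (SE 0.11, 95% interval −0.64 to −0.16, unadjusted p = 0.00336, edgeR adjusted p = 0.114), to 75.7% of siCTR, with values from −0.42 to −0.36 when each library was left out. EPHX1 was the 1 gene of the 7 past the unadjusted threshold with a promoter window that carried the core (14.3%). The share was 19.5% over the 9372 tested genes with a window.

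Among the ABC transporters that export glutathione and glucuronide conjugates, ABCC3 had 496, 282 and 394 reads in siCTR against 623, 501 and 502 in siLSD1. The highest siCTR library lay within the siLSD1 range. ABCC3 rose by 0.47 on the log2 scale (SE 0.18, 95% interval 0.08 to 0.85, unadjusted p = 0.0208, edgeR adjusted p = 0.251), to 138% of siCTR. It was 0.29 without siCTR replicate 2 (unadjusted p = 0.0800) and 0.38 without siLSD1 replicate 1 (unadjusted p = 0.0794). ABCC1 and ABCC2 did not pass, at 0.07 (95% interval −0.21 to 0.36) and −0.10 (95% interval −0.34 to 0.13). ABCC1 was at 0.039 without siCTR replicate 1, and ABCC2 at −0.17 without siCTR replicate 2 and −0.062 without siCTR replicate 3.

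Ferritin, the iron store whose subunit genes carry antioxidant response elements, was the least certain group. FTH1, the heavy chain, had 6139, 4957 and 2321 reads in siCTR against 9272, 4412 and 1301 in siLSD1. The siLSD1 libraries held both the highest and the lowest value of all 6, so that neither group can be placed above the other. The log2 difference was 0.15 with an interval from −0.93 to 1.22 (SE 0.50, edgeR adjusted p = 0.919), and it ran from −0.61 to 0.61 when each library was left out. In both groups the reads fell from replicate 1 to replicate 3. With the replicate number as a block in the edgeR fit, the log2 difference was −0.13 (SE 0.13, unadjusted p = 0.323). On the FTH1 exons, 73.2% of bases are overlapped by BEST1 on the opposite strand, and 51.3% of its stretches of 32 bases occur in other genes, among them the pseudogene FTH1P10. FTL, the light chain, had 8153, 10746 and 8231 reads in siCTR against 9218, 7451 and 6495 in siLSD1. The groups overlapped, with a log2 difference of −0.23 (SE 0.15, 95% interval −0.57 to 0.10, edgeR adjusted p = 0.519). It was −0.073 without siCTR replicate 2, −0.11 without siLSD1 replicate 3 and −0.36 without siLSD1 replicate 1 (unadjusted p = 0.0495). With the correction for GC content and length described below, FTL was at −0.12.

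Of the glutathione transferases, GSTM3 fell. This mu-class enzyme had 4043, 5410 and 4231 reads in siCTR against 3364, 3166 and 3353 in siLSD1. The groups did not overlap, and siCTR replicate 2 again lay above the other controls. GSTM3 went from 349 ± 62.5 to 251 ± 2.75 CPM (SD, n = 3), with a log2 difference of −0.48 (SE 0.13, 95% interval −0.75 to −0.20, unadjusted p = 0.00281, edgeR adjusted p = 0.104). The difference was −0.32 without siCTR replicate 2 (unadjusted p = 0.00329). GSTP1, the pi-class enzyme with the promoter match shown above, was at −0.17 (95% interval −0.43 to 0.09), and GSTO1 at −0.26 (95% interval −0.57 to 0.06). Without siCTR replicate 2 they were at −0.058 and −0.071, and GSTO1 passed without siCTR replicate 1 (unadjusted p = 0.0263).

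None of the 6 general enzymes that remove peroxides and superoxide passed either threshold in the uncorrected fit. GPX4, the selenoenzyme that reduces lipid hydroperoxides in membranes, had 3529, 4787 and 3918 reads in siCTR against 3418, 3353 and 3563 in siLSD1. Its groups did not overlap in scaled values, and the log2 difference was −0.25 (SE 0.13, 95% interval −0.52 to 0.03, unadjusted p = 0.0738, edgeR adjusted p = 0.411). It was −0.098 without siCTR replicate 2, −0.34 without siCTR replicate 1 (unadjusted p = 0.0262) and −0.022 with the correction for GC content and length described below. SOD1, the cytosolic copper-zinc superoxide dismutase, had 3004, 4347 and 3198 reads against 3326, 2990 and 3410. Apart from siCTR replicate 2 the libraries of both groups lay together, and the difference was −0.12 (SE 0.14, edgeR adjusted p = 0.728), with values from −0.22 to 0.076 when each library was left out. SOD2, the mitochondrial manganese enzyme, had 1826, 2180 and 1922 reads against 2379, 2061 and 2359. The groups overlapped, and the log2 difference was 0.19 (SE 0.11, unadjusted p = 0.113, edgeR adjusted p = 0.472), while without siCTR replicate 2 it was 0.29 (unadjusted p = 0.00961) and with the correction for GC content and length 0.072 (unadjusted p = 0.617). CAT, the peroxisomal catalase, had 718, 597 and 737 reads against 687, 632 and 753, a log2 difference of 0.01 with an interval from −0.25 to 0.27. GPX1 and GPX8 were at −0.21 and −0.16, with GPX1 at −0.056 without siCTR replicate 2 and GPX8 at −0.11 without siLSD1 replicate 1 and −0.27 without siLSD1 replicate 3 (unadjusted p = 0.0497). Of the stretches of 32 bases in GPX1, 81.6% occur in other genes, so its counts are uncertain.

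TXN2, the mitochondrial thioredoxin, had 744, 1003 and 838 reads in siCTR against 739, 679 and 686 in siLSD1. The groups did not overlap in scaled values. It fell by 0.30 on the log2 scale (SE 0.13, 95% interval −0.59 to −0.01, unadjusted p = 0.0412, edgeR adjusted p = 0.325). Without siCTR replicate 2 the difference was −0.16 (unadjusted p = 0.165), and of the 6 fits that left out a library TXN2 passed only without siCTR replicate 1 (unadjusted p = 0.0168), with 0.0528 without siCTR replicate 3 and 0.0562, 0.0937 and 0.0885 without siLSD1 replicates 1, 2 and 3. GLRX, the cytosolic glutaredoxin that removes glutathione from protein cysteines, had 36.5 ± 5.02 CPM in siCTR and 30.5 ± 0.868 in siLSD1 (SD, n = 3), with no overlap and a log2 difference of −0.26 (unadjusted p = 0.0720, edgeR adjusted p = 0.410), or −0.14 without siCTR replicate 2. With the correction for GC content and length, GLRX was at −0.14 as well. TXNRD2 and GLRX2, the mitochondrial thioredoxin reductase and glutaredoxin, did not pass. OSGIN1, an oxidative stress-induced growth inhibitor, had 188, 165 and 134 reads in siCTR against 162, 123 and 83 in siLSD1, with overlap and a log2 difference of −0.41 (SE 0.23, unadjusted p = 0.0993, edgeR adjusted p = 0.451). Its value moved with single libraries, from −0.18 without siLSD1 replicate 3 to −0.55 without siCTR replicate 3 (unadjusted p = 0.0416) and −0.64 without siLSD1 replicate 1 (unadjusted p = 0.0212). With the correction for GC content and length, OSGIN1 was at −0.24.

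Counted over the whole list, the siLSD1 libraries were all below the siCTR libraries for 14 of the 44 genes (31.8%, compared with 9.97% of all tested genes) and all above for 2, SLC7A11 and NFE2L1 (4.55%, compared with 11.4%). The 32 genes that passed no threshold had log2 differences from −0.60 to 0.22. Their 95% intervals lay within ±1 for 29 and within ±0.5 for 18.

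On a scale per length, the listed genes spanned a wide range in siCTR. By FPKM, 11 lay above 100, 22 between 10 and 100 and 11 below 10. FTL was highest, at 786 ± 133 FPKM, followed by GSTP1 at 680 ± 79.3 (SD, n = 3), and these neighbours did not differ beyond their spread. SOD1 (278 ± 58.6), GPX1 (264 ± 43.8), GPX4 and TKT (240 ± 11.3) came next, with overlapping spreads. HMOX1 fell from 18.7 ± 1.32 to 11.3 ± 1.80 FPKM and SLC7A11 rose from 5.70 to 7.53. AKR1C3 was at 39.5 ± 5.72 FPKM in siCTR and AKR1C2 at 2.36 ± 0.141, while AKR1C1, at 0.147, and SQSTM1, at 0.284, were lowest. The limits given above, shared sequence for AKR1C1 and the overlap with MRNIP for SQSTM1, apply to these levels too.

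**Figure D4:**
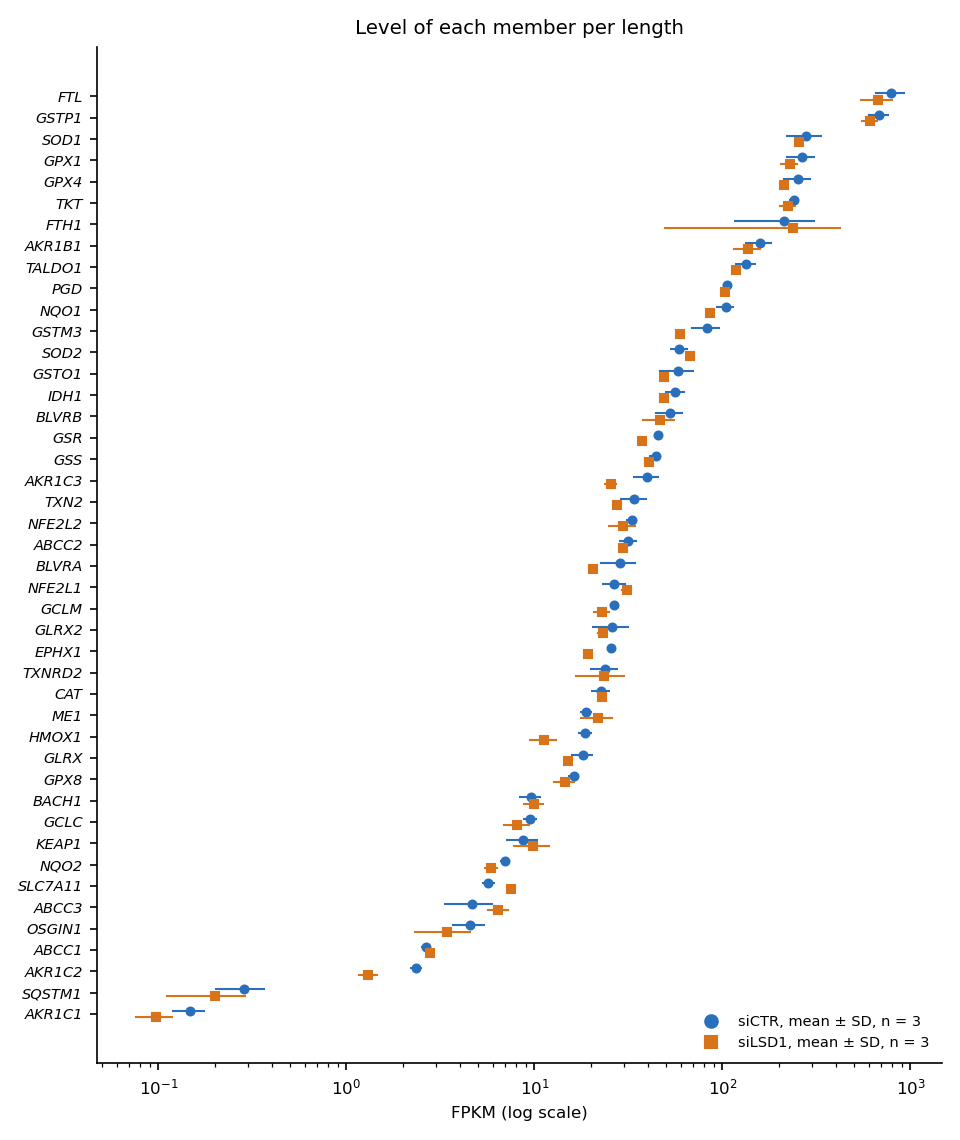
Level of each listed gene in FPKM (x axis, log scale), ordered by the siCTR mean, as mean ± SD of 3 libraries for siCTR (circles) and siLSD1 (squares). The order runs from FTL at 786 FPKM to AKR1C1 at 0.147, and the means of both groups lie close together at this scale.

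The calls depended on whether GC content and transcript length were adjusted for. The listed genes had a median GC content of 50.2% and a median length of 2279.5 bases, compared with 48.3% and 3366 bases over all tested genes. With a correction for both, 15 genes were lower and 3 higher at the unadjusted threshold, where the background rose to 12.1% and 12.7%. At the adjusted threshold 8 were lower (HMOX1, AKR1C2, AKR1C3, GSTM3, GSR, BLVRA, EPHX1 and NQO1; 3.52% of all tested genes) and 2 were higher (SLC7A11 at an edgeR adjusted p of 0.0354 and ABCC3 at 0.0441; 5.10% of all tested genes). The genes added at the unadjusted threshold were GCLC, GCLM, IDH1, ABCC2 and GPX8 among the lower and NFE2L1 among the higher. The median over the list was −0.13 with this correction, and GSTP1, GPX1, GPX4, SOD1 and BLVRB lay between −0.022 and 0.0025. HMOX1, AKR1C2 and AKR1C3 had edgeR adjusted p-values of 0.00123, 0.00737 and 0.00127.

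**Figure D5:**
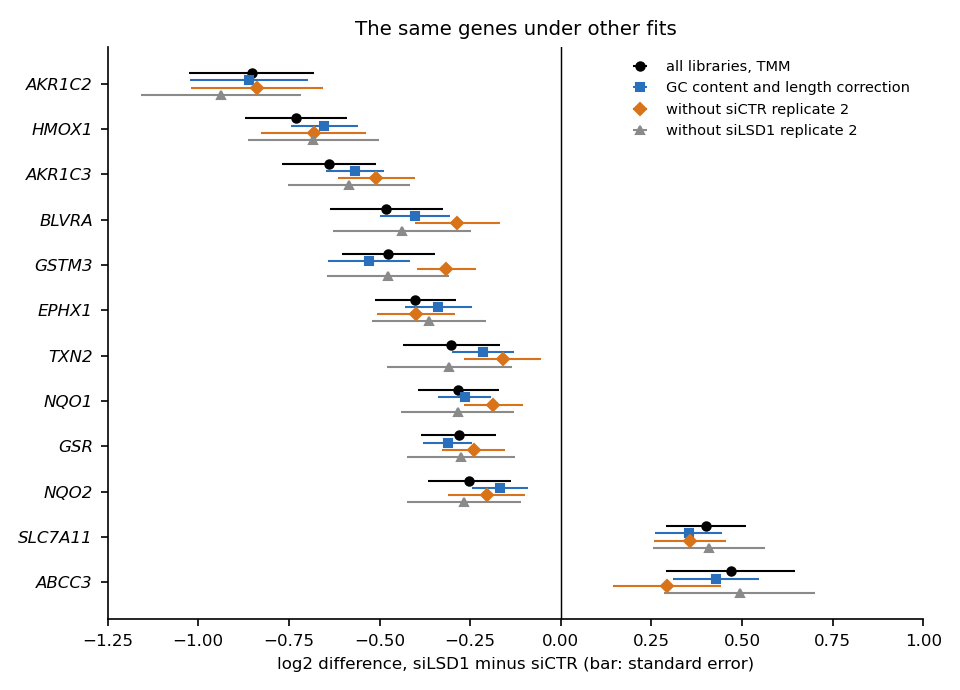
Log2 difference between siLSD1 and siCTR (x axis, bars are standard errors) for the 12 listed genes with an unadjusted p under 0.05 (y axis), under the edgeR fit with all libraries and under other fits named in the key. HMOX1, AKR1C2 and AKR1C3 keep the lowest values, and BLVRA, TXN2 and ABCC3 move toward 0 without siCTR replicate 2.

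Other genes of the pathway were read from a longer list of 89 genes by role, of which 82 were in the table and 75 were tested. Of these, 14 fell and 9 rose at the unadjusted threshold (6.55% and 7.48% of all tested genes), and the median log2 difference was −0.11. At the adjusted threshold 1 was higher and 0 were lower with edgeR (1.07% and 0.371% of all tested genes). DESeq2 called 2 higher, MSRB3 and TXNIP, and 3 lower, CBR3, GSTM4 and SESN1 (1.77% and 0.954% of all tested genes). With the correction for GC content and length edgeR called 8 higher and 6 lower (5.10% and 3.52%). The gene called higher by edgeR without it was MSRB3, a methionine sulfoxide reductase, with 651, 674 and 713 reads in siCTR against 1003, 935 and 960 in siLSD1. The groups did not overlap, with a log2 difference of 0.51 (SE 0.11, edgeR adjusted p = 0.0386), but the adjusted p was over the threshold in each fit that left out a library, from 0.0535 without siLSD1 replicate 3 to 0.239 without siLSD1 replicate 2, and was 0.0505 with the second counting of the reads.

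Among NRF2 turnover genes and partners, 2 of 12 fell and 2 rose (16.7% each, compared with 6.55% and 7.48% of all tested genes). RBX1, the RING subunit of the ligase that carries KEAP1, was at −0.40 and AMER1, a KEAP1-binding protein also known from WNT signalling, at −0.47. MAFF, a small MAF partner, was at 0.52 and GSK3B, the kinase that marks NRF2 for a KEAP1-independent ligase, at 0.32. Of 17 other NRF2 targets, 5 fell (29.4%) and 1 rose (5.88%), compared with 6.55% and 7.48% of all tested genes. This group was not split into genes that NRF2 raises and genes that it lowers. Among those that fell, the carbonyl reductases CBR1 and CBR3 were at −0.33 and −1.18, UGDH, which makes UDP-glucuronic acid, at −0.34, and TRIM16L at −0.33. CBR3 rested on few reads, with 41, 84 and 74 in siCTR and 28, 17 and 43 in siLSD1 and an overlap between the groups (edgeR adjusted p = 0.119). TXNIP, the inhibitor of thioredoxin, was the 1 that rose, at 0.47 (edgeR adjusted p = 0.0867).

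In the glutathione cycle and its transferases, 4 of 21 genes fell (19.0%) and 2 rose (9.52%), compared with 6.55% and 7.48% of all tested genes. The transferases GSTM4 and MGST2 were at −0.46 and −0.36, CHAC2, which degrades glutathione, at −0.40, and HAGH, the glyoxalase that releases glutathione, at −0.32. CHAC1, the stress-induced relative of CHAC2, moved the other way, with 41, 49 and 36 reads in siCTR against 89, 64 and 61 in siLSD1 and a log2 difference of 0.76 (SE 0.24, edgeR adjusted p = 0.167), and GSTZ1 was at 0.44. Of 25 other antioxidant proteins, 3 fell (12%) and 4 rose (16%), beside the same 6.55% and 7.48% of all tested genes. SESN1, a p53-regulated sestrin, had 221, 228 and 215 reads against 134, 133 and 167, with no overlap and a log2 difference of −0.62 (SE 0.15, edgeR adjusted p = 0.0636). MSRB1 and TXNDC17 were at −0.33 and −0.34, whereas TXNDC12 was at 0.55, SCARA3 at 0.48 and NNT, the mitochondrial transhydrogenase that makes NADPH, at 0.25.

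Of these genes of the longer list, 9 kept an unadjusted p under 0.05 whichever library was left out: GSK3B, CBR3, UGDH, TXNIP, CHAC1, GSTM4, MSRB3, SESN1 and SCARA3. The others named did not. Without siCTR replicate 1, MAFF, AMER1, MGST2, HAGH, TXNDC17 and NNT missed the threshold (unadjusted p from 0.0549 to 0.111), and AMER1 was at −0.31. Without siCTR replicate 2, RBX1, CHAC2, MGST2, HAGH, TXNDC12, TXNDC17 and MSRB1 missed it (0.0679 to 0.142), with RBX1 at −0.19, and SCARA3 was at 0.31. Without siCTR replicate 3, AMER1, GSTZ1, MGST2, TXNDC12 and MSRB1 missed it (0.0538 to 0.0994), as did NNT. Without siLSD1 replicate 1 the same held for RBX1, MAFF, GSTZ1, MGST2, TXNDC12 and MSRB1 (0.0590 to 0.214), with TXNDC12 at 0.32. Without siLSD1 replicate 2 it held for AMER1, CBR1, TRIM16L, HAGH, TXNDC17 and NNT (0.0607 to 0.217), and without siLSD1 replicate 3 for AMER1, MGST2, TXNDC17, MSRB1 and NNT (0.0509 to 0.134). The groups overlapped for AMER1, TXNDC12 and TXNDC17 as they did for CBR3.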

How the data were processed

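RNA-seq was measured in 3 siCTR and 3 siLSD1 U2OS libraries, which were grouped by their labels. The labels do not say that these came from separate cultures, so p-values measure only the spread between these samples. Per the study's methods, the authors aligned reads with STAR. The genome build, annotation, counter and strand setting are not given in the sources used here. The authors deposited read counts per gene and FPKM values for all 6 libraries, and count tables for pairs of libraries from a second counting, used as an alternative. The deposited comparison columns (fold changes and p-values) were not used.

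The deposited counts were fitted with edgeR 4.0.16 (R 4.3.3; TMM factors, filterByExpr at its minimum count of 10, glmQLFit and glmQLFTest with no covariate), with Benjamini-Hochberg adjustment over 11844 genes. CPM values are scaled by TMM. FPKM values served only for levels. Any 2 libraries of a group differed by more than counting noise (chi-square per degree of freedom of at least 5.46). An exact test of 3 against 3 libraries cannot go below p = 0.1 and was not used. The biological coefficient of variation was 12.6%.

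Gene positions, GC content and length came from GENCODE 44 (GRCh38) by symbol, with values for 99.3% of tested genes, and promoters from RefSeq. Full values are given for listed genes with an unadjusted p under 0.05 and for NFE2L2, KEAP1, BACH1, NQO1, HMOX1, GCLC, GCLM, SLC7A11, GPX4, SOD1, SOD2, CAT, FTH1 and FTL, and the rest by value, range or count. Of the longer list, genes with an unadjusted p under 0.05 are named, except 1 that enters the counts but is not reported here. The genes, lists and rules were chosen with earlier results of these data known. Alternatives were DESeq2 1.42.0, limma-voom (limma 3.58.1), other scalings and filters, the second counting, a correction for GC content and length, a replicate block, and leaving out each library.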

Additional observations from a re-analysis of the deposited data

How the results depend on the processing

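DESeq2, limma-voom, other scalings and filters and the second counting kept the number of listed genes lower at an unadjusted p under 0.05 at 9 or 10, that of higher genes at 2, and the number lower at an adjusted p under 0.05 at 3 or 4 (over all tested genes 5.94% to 6.66% were lower and 6.53% to 7.71% higher at the unadjusted threshold, and 0.321% to 0.954% lower at the adjusted, with 0.954% in DESeq2 and 0.654% without a filter, the fits with 4). With the GC content and length correction, 2 listed genes were higher and 8 lower at the adjusted threshold (5.10% and 3.52% of all tested genes). The labels do not say whether the replicate numbers pair the samples. Same-numbered libraries correlated at 0.328, 0.0744 and 0.310 in their deviations from the group means. Other pairs of a siCTR and a siLSD1 library ran from −0.286 to 0.00720, so each library correlated best with its own number. The fit with no covariate took no account of this. With the replicate as a block, 2 were higher and 6 lower at the adjusted threshold, where the background was 4.13% and 3.44%, and the block with the GC content and length correction gave 2 and 9 (6.99% and 5.97% of all tested genes), with 5 higher and 16 lower at the unadjusted threshold (14.5% and 14.3%). At the unadjusted threshold the block added NFE2L1 among the higher and GCLM, GPX4, FTL, OSGIN1 and GSTO1 among the lower, and the block with the correction added KEAP1 and ME1 among the higher. Of the longer list, the block called 5 higher and 7 lower at the adjusted threshold. The cause of these shifts was not tested. When each library was left out, the log2 difference of KDM1A ran from −2.47 to −2.38, the listed genes lower at the unadjusted threshold from 6 (without siLSD1 replicate 2, where 3.79% of all tested genes were lower) to 11 (without siCTR replicate 1, where 6.58% were lower, or siLSD1 replicate 3, where 719 of 11984 were), those lower at the adjusted threshold from 0 to 2 (0.0584% to 0.309% of all tested genes), and the median over the list from −0.26 to −0.083 (without siCTR replicate 2). The sign turned for FTH1 (−0.14 with limma-voom, −0.13 with the block, −0.056 with the block and the correction, −0.61 to 0.61 without each library), TXNRD2 (0.076 with the correction, 0.073 with the block and the correction, −0.20 to 0.18 without each library) and GSTP1 (0.0025 with the correction, 0.0015 with the block and the correction) and, without single libraries, for GLRX2 (−0.27 to 0.031), BACH1 (−0.029 to 0.15), CAT (−0.064 to 0.052) and SOD1 (−0.22 to 0.076). Low counts limited AKR1C1 and SQSTM1, with 17 reads or fewer per library. The cause of these low counts was not tested.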

Other observations

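FTH1 had the largest within-group spread of the 2549 tested genes whose mean reached 100 CPM, with a pooled within-group SD of 1.16 on the log2 scale. Its CPM values were 473, 386 and 173 in siCTR and 691, 354 and 96.5 in siLSD1, so in each group they fell from replicate 1 to replicate 3. FTL, the other ferritin chain, had a within-group SD of 0.25, which 232 of these genes exceeded, and TXNRD2 had 0.36, which 49 exceeded. BEST1, which overlaps FTH1 on the opposite strand, had 25 to 44 reads per library.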
